A study of Mus musculus with 24 samples.

Results

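The genes described here import cystine into cultured mouse pancreatic cancer cells and turn it into glutathione, or recycle, use and break down that tripeptide. They were chosen as 10 named genes, namely Slc7a11, Slc3a2, Gclc, Gclm, Gss, Gsr, Gpx1, Cbs, Cth and Chac1. Each of the 10 had 1 row in every count table, out of 55401 genes per table. Messenger RNA was sequenced in 24 libraries of pancreatic ductal adenocarcinoma (PDAC) lines that fall into 11 groups. KPsh cells carry a doxycycline-dependent hairpin against Trp53, so that p53 returns when the drug is taken away. They were kept off doxycycline or on 1 µg/ml of it for 10 days (n = 3 each). Other KPsh cells had Pcyt2 targeted by a guide RNA (sgPcyt2) and were kept off or on doxycycline for 6 days, either as such or with a Pcyt2 cDNA added back (n = 2 for each of these 4 groups). KPnull cells were engineered with a doxycycline-inducible vector holding p53WT, a p53 mutant in the TAD1 or TAD2 transactivation domain (TAD1m, TAD2m), a mutant in both (TAD12m), or no cDNA (n = 2 each). All KPnull groups were taken as exposed to doxycycline for 48 hours. In the KPsh settings the drug and p53 changed together, so that an effect of doxycycline itself and one of p53 cannot be told apart. The labels do not say whether libraries of 1 group came from separate cultures, so p-values speak only of the spread among these libraries, part or all of which may be technical.

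Cystine enters the cell in exchange for glutamate through an antiporter made of the transport subunit Slc7a11 (xCT) and the heavy chain Slc3a2 (CD98hc), and is reduced to cysteine inside. Cysteine can also be made from methionine by transsulfuration, in which Cbs joins homocysteine to serine and Cth releases cysteine. Glutamate-cysteine ligase, with the catalytic subunit Gclc and the modifier subunit Gclm, carries out the rate-limiting step of glutathione synthesis, and Gss adds glycine. Gsr returns oxidised glutathione to its reduced form, Gpx1 spends it on peroxides, and Chac1 cleaves it. Slc7a11 is a known target of the transcription factors ATF4 and NRF2, and p53 is known to repress it in human and mouse cells.

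On the mouse build mm10, Slc7a11 lies on the minus strand of chromosome 3 from 50364938 to 50443611, and Gclm on the plus strand of the same chromosome from 122245557 to 122270732. Cth also lies on chromosome 3, on the minus strand from 157894248 to 157925077. Chromosome 9 holds Gclc from 77754535 to 77794485 and Gpx1 from 108339054 to 108340343, both on the plus strand. Chromosome 2 holds Gss on the minus strand from 155563181 to 155592810 and Chac1 on the plus strand from 119351229 to 119354381. Slc3a2 is on chromosome 19 (8707617 to 8713879, minus strand), Cbs on chromosome 17 (31608894 to 31637199, minus strand) and Gsr on chromosome 8 (33653238 to 33698163, plus strand). Reads had been counted over exons on both strands. Overlap was looked up for the listed transcript of each gene in an earlier GENCODE release than the one used for counting. Of the exon bases of Gss, 14.1% overlap genes on the opposite strand (Acss2, Gssos1 and Gssos2), whose reads cannot be told apart from its own. The exons of the other 9 genes overlap no other gene in that release.

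Promoters of 7 of the 10 genes were found in RefSeq's annotation of GRCm38.p6, and none was listed for Gclc, Gsr and Cth. The 250 bases upstream of 3 starts are shown because they hold a motif of a factor known to act on such genes, in capitals, read 5′ to 3′ on the strand of the gene. The motifs searched on both strands were the C/EBP-ATF element TGATGCAA, the antioxidant response element core TGACNNNGC, the cAMP and ATF element half-site TGACGT, and the p53 half-site.
Slc7a11, chr3:50443614-50443863, minus strand: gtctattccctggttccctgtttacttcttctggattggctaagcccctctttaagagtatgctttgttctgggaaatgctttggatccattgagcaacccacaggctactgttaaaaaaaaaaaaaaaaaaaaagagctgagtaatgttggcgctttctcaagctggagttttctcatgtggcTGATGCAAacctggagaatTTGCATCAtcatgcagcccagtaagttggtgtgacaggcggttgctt
Chac1, chr2:119350992-119351241, plus strand: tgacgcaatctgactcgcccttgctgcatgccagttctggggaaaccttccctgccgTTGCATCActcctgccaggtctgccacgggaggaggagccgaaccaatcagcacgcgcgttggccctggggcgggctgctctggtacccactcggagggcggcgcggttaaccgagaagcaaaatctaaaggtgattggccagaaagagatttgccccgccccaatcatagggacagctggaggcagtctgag
Gclm, chr3:122245307-122245556, plus strand: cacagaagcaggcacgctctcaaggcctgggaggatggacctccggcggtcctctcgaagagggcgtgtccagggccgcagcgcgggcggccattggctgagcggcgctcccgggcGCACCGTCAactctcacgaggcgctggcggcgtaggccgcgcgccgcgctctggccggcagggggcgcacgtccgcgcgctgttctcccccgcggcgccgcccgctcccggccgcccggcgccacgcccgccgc
The Slc7a11 window holds TGATGCAA once from -66 to -59 and once on the other strand from -47 to -40, counted back from the base before the start. Chac1 holds it once, on the other strand, from -193 to -186. That motif stands in 0.791% of 32851 promoter windows of this length. Gclm holds the antioxidant response element core once, on the other strand, from -134 to -126, a motif found in 10.2% of the windows. The letters TGACGT (in 6.47% of the windows) and the p53 half-site (in 7.13%) were in none of the 7 windows. A match of letters is a description and not evidence of a bound site.

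Total counts ran from 9393966 to 12983420 per library in the KPsh table, from 13801514 to 17127760 in the Pcyt2 table and from 13657592 to 19431250 in the KPnull table. Trp53 stood at 252 to 263 CPM (counts scaled to library size) in KPsh cells off doxycycline, against 20.3 to 21.7 CPM on it. It stood at only 41.6 and 42.1 CPM in sgPcyt2 cells off the drug, against 19.1 and 22.7 CPM on it, and at 86.8 and 97.2 CPM against 19.3 and 20.2 CPM with the cDNA. Pcyt2 itself stood at 17.7 and 21.3 CPM in sgPcyt2 cells off doxycycline and at 28.4 and 28.6 CPM on it. With the cDNA, Pcyt2 stood at 2193 and 2202 CPM off the drug and at 2588 and 2636 CPM on it. Unedited KPsh cells, in a table scaled separately, had 83.4 to 114 CPM of Pcyt2. In KPnull cells Trp53 messenger stood at 649 and 686 CPM with p53WT and at 622 and 654 CPM with TAD1m. The TAD2m libraries had 525 and 530 CPM and the TAD12m libraries 552 and 580 CPM, against 4.50 and 6.10 CPM with the vector. The part of these levels in differences between the forms was not tested. Of the 8 epithelial markers, Krt8, Krt18, Krt19 and Cdh1 were at 401 CPM or more in all 24 libraries, while Epcam (up to 1.38 CPM) and Cldn4 (up to 0.405 CPM) were near 0, and Sox9 lay between 0.824 and 53.4 CPM. Krt7, another ductal keratin, stood at 205 to 1048 CPM in the KPsh table but at 0.190 to 2.37 CPM in the Pcyt2 table, although both are labelled KPsh. The markers of other cell types summed to at most 9.38 CPM (9 fibroblast markers), 31.2 CPM (8 immune markers, mostly Csf1r, with Ptprc at 0.5 CPM or less), 8.23 CPM (5 endothelial markers) and 4.69 CPM (8 acinar and endocrine markers). The share of mitochondrial counts was 3.31% to 3.51% in both Pcyt2-edited groups off doxycycline, against 1.86% to 2.00% on it, and 3.01% to 3.09% with p53WT or TAD2m, against 2.24% to 2.36% with the vector. Its part in the results was not tested. In bulk RNA, fewer cells that express a gene and less RNA per cell cannot be told apart.

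Per kilobase of transcript, Gsr, Gpx1 and Slc3a2 each averaged 54.9 CPM per kb or more in all 11 groups, while Cbs stayed at 0.484 CPM per kb or less and Chac1 at 7.72 or less. Slc7a11 ranked 6 to 8 among the 10 genes within a group, with its highest group mean of 38.0 ± 3.8 CPM per kb in sgPcyt2 cells off doxycycline and its lowest of 5.73 ± 0.04 in the same cells on it (SD, n = 2 each). Gclc, the catalytic ligase subunit, averaged 165.5 ± 8.7 CPM per kb in sgPcyt2 cells off doxycycline and 21.4 ± 2.0 on it (SD, n = 2 each), and was the highest of the 10 genes in the first of these groups. These levels set genes side by side only within a group, since the 3 tables were scaled separately.

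**Figure D1:**
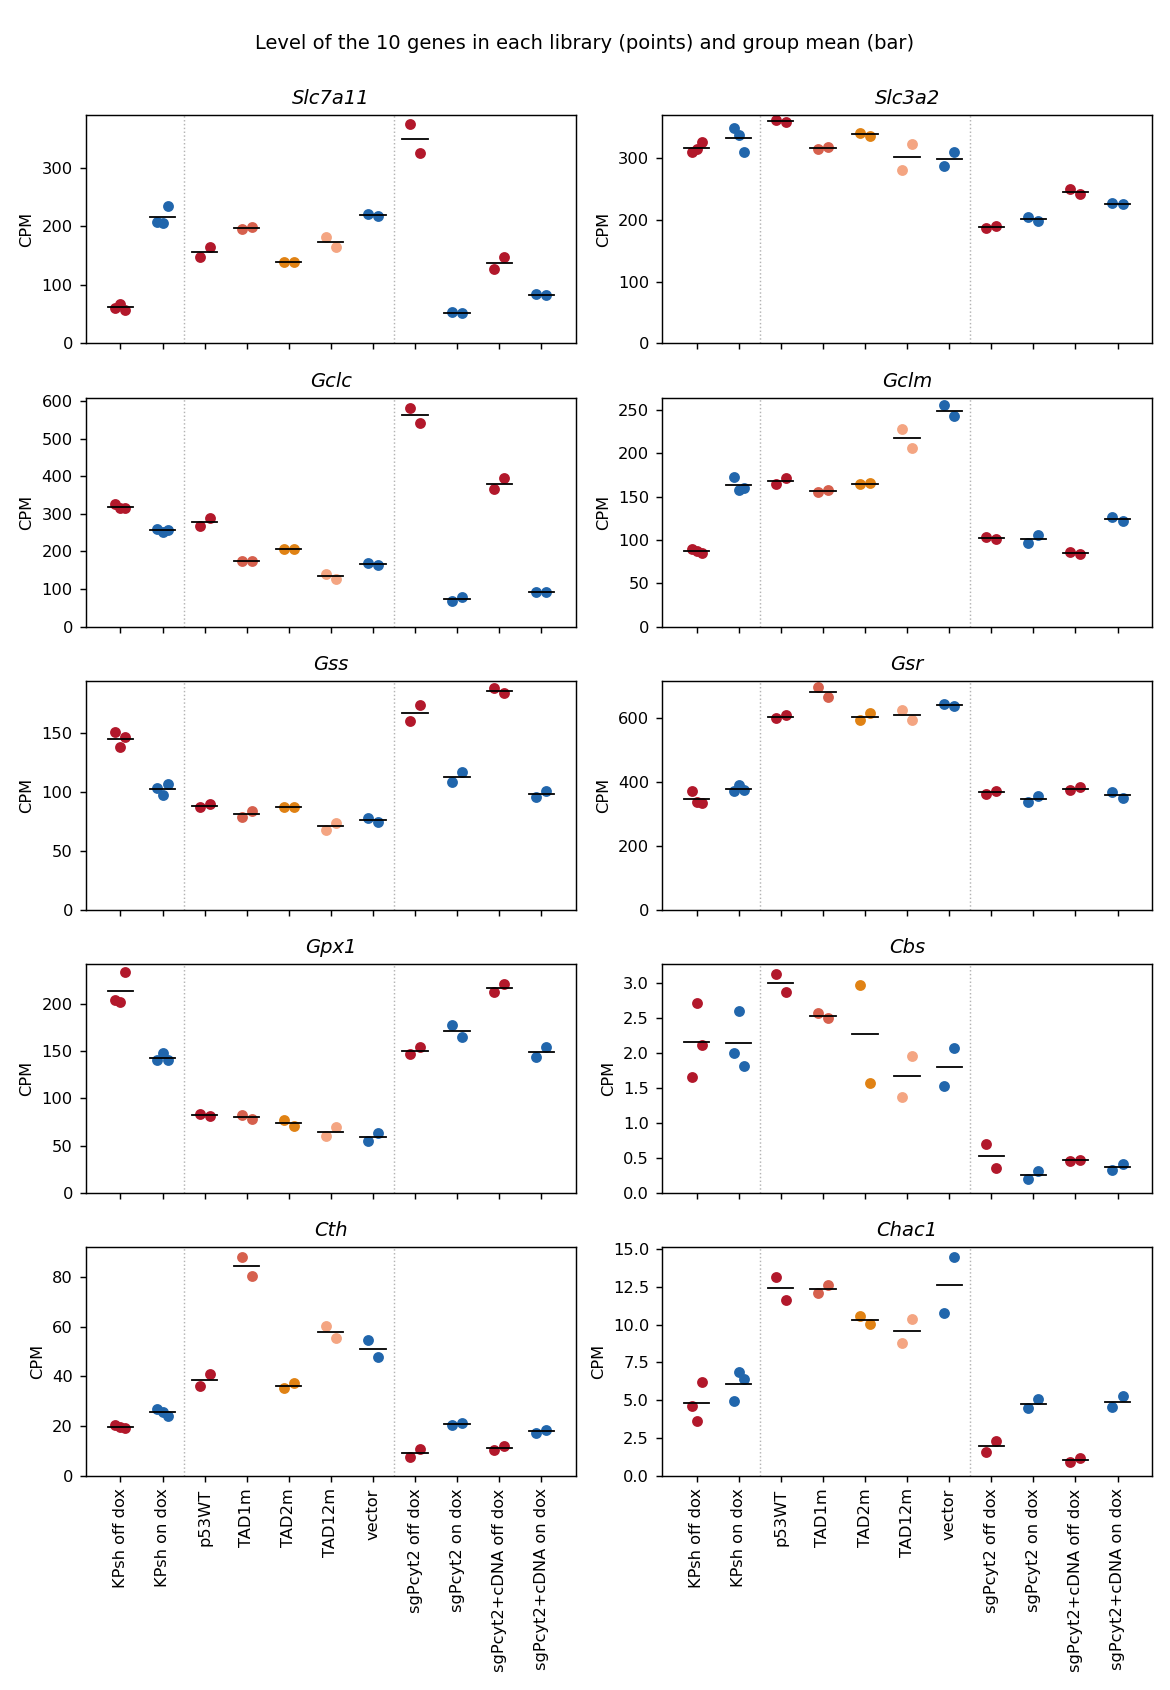
Level of each of the 10 genes in CPM (linear axes from 0) in the 24 libraries, with 1 point per library and a bar at the group mean. Dotted lines separate the KPsh, KPnull and Pcyt2 tables. Red and orange mark restored or added p53, and blue marks p53 silenced by the hairpin or the empty vector. Slc7a11 is lower off than on doxycycline in KPsh cells and higher off than on it in both Pcyt2-edited settings.

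In KPsh cells kept off doxycycline for 10 days, the cystine carrier Slc7a11, the modifier subunit Gclm and Cth fell relative to cells on the drug, while the catalytic subunit Gclc, Gss and Gpx1 rose. Of the 10 genes 3 rose and 3 fell at an adjusted p under 0.05 (edgeR's quasi-likelihood test, adjusted over all 13990 genes tested), in a comparison where 33.1% of all genes rose and 31.7% fell, 64.8% together. The share of members called is thus no higher than the background. The median log2 change was -0.09 over the 10 genes and 0.01 over all genes tested.

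Slc7a11 stood at 61.3, 67.1 and 57.3 CPM off doxycycline, against 207, 206 and 235 CPM on it. All 3 libraries with restored p53 lay far below all 3 with p53 silenced. The log2 change was -1.80 ± 0.07 (SE), or 3.49-fold lower, with an adjusted p of 1.55e-15. Its partner Slc3a2, which also serves other amino acid transporters, had 309, 314 and 326 CPM off the drug, against 348, 337 and 309 CPM on it. Those groups overlapped, and the log2 change of -0.07 ± 0.06 was not called (adjusted p = 0.314).

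Gclc, the catalytic subunit, had 325, 316 and 315 CPM off doxycycline, against 260.3, 250.5 and 256 CPM on it. Gclm, its modifier, had 89.7, 87.1 and 84.4 CPM off the drug, against 173, 157 and 160 CPM on it. The subunits moved in opposite directions with no overlap between groups, Gclc by 0.32 ± 0.05 (adjusted p = 1.28e-05) and Gclm by -0.91 ± 0.06 (adjusted p = 1.12e-11) on the log2 scale. Gss, the second enzyme of the pathway, had 151, 138 and 146 CPM off doxycycline, against 104, 97.4 and 106 CPM on it, a log2 rise of 0.50 ± 0.06 (adjusted p = 1.73e-07). Gpx1, the peroxidase, had 205, 203 and 234 CPM off the drug, against 140.3, 148 and 141 CPM on it. Every p53-restored library was above every library on doxycycline for both genes, and the log2 rise of Gpx1 was 0.58 ± 0.06 (adjusted p = 2.51e-08).

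Cth, which releases cysteine in transsulfuration, had 20.3, 19.6 and 19.1 CPM off doxycycline, against 26.9, 25.5 and 24.2 CPM on it. It fell by 0.38 on the log2 scale (SE 0.09, adjusted p = 0.00102), without overlap. Gsr, the reductase, had 371, 337 and 334 CPM off the drug, against 372, 389 and 374 CPM on it. Its groups came close without overlapping, and its log2 change of -0.12 ± 0.06 narrowly missed the threshold (adjusted p = 0.0542, with 0.0115 to 0.173 over the alternatives). Cbs stayed between 1.66 and 2.72 CPM in the 6 libraries, and Chac1 had 4.59, 3.60 and 6.17 CPM off doxycycline, against 4.92, 6.84 and 6.42 CPM on it. Both overlapped between groups and were not called, Cbs with a log2 change of 0.05 ± 0.26 (95% interval -0.49 to 0.60) and Chac1 with -0.33 ± 0.20 (95% interval -0.74 to 0.08). Without replicate 3 off doxycycline, Chac1 was called as lower (log2 -0.56 ± 0.22, adjusted p = 0.0294).

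In Pcyt2-edited cells the carrier went the other way. When doxycycline was withdrawn for 6 days, Slc7a11 and Gclc rose steeply in sgPcyt2 cells and less in cells with the Pcyt2 cDNA, while Cth and Chac1 fell in both. Of the 9 genes tested (Cbs did not pass the filter on low counts), 3 rose and 4 fell in sgPcyt2 cells, where 39.2% of 14916 genes rose and 37.1% fell (76.3% together). With the cDNA 5 rose and 3 fell, where 37.3% of genes rose and 36.3% fell (73.5% together). Near such backgrounds the counts say little about the members, and the sizes and directions of single genes carry the description.

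Slc7a11 stood at 375 and 325 CPM in sgPcyt2 cells off doxycycline, against 53 and 52.4 CPM on it. With the cDNA it stood at 128 and 148 CPM off the drug, against 84.3 and 82.4 CPM on it. Off doxycycline exceeded on doxycycline in every library of both settings, and the sgPcyt2 cells held both the highest and the lowest level. The log2 rise was 2.73 ± 0.08 in sgPcyt2 cells (adjusted p = 1.78e-14) and 0.73 ± 0.08 with the cDNA (adjusted p = 3.5e-07). The responses themselves differed by 2.00 ± 0.11 on the log2 scale (interaction term, adjusted p = 1.5e-09). Of the 9 genes, 3 had a higher and 4 a lower response in sgPcyt2 cells, where 12.8% of all genes were higher and 12.4% lower (25.2% together).

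Gclc followed the same order, with 582.4 and 540.6 CPM in sgPcyt2 cells off doxycycline, against 67.9 and 77.3 CPM on it. With the cDNA it had 366 and 394 CPM off the drug, against 91.2 and 92.3 CPM on it. These rises of 2.95 ± 0.05 (7.74-fold) and 2.05 ± 0.05 (4.14-fold) on the log2 scale were the largest rises among the members tested in both settings, and they differed by 0.90 ± 0.07 (adjusted p = 3.06e-13). Gclm had 103 and 101 CPM in sgPcyt2 cells off doxycycline, against 96.7 and 106 CPM on it, and 86.5 and 83.5 CPM against 126 and 122 CPM with the cDNA. The modifier thus overlapped between groups in sgPcyt2 cells (log2 change 0.01 ± 0.05, adjusted p = 0.878) and fell by 0.55 on the log2 scale with the cDNA (SE 0.05, adjusted p = 2.7e-13).

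The balance of the ligase subunits, taken as the ratio of Gclc to Gclm in CPM per kb, was looked at after these values had been seen and is given without a test. It was 9.30 and 8.79 in sgPcyt2 cells off doxycycline, against 1.15 and 1.2 on it, and 6.95 and 7.75 against 1.19 and 1.24 with the cDNA. In unedited KPsh cells it was 5.95, 5.96 and 6.14 off the drug, against 2.47, 2.62 and 2.63 on it. In KPnull cells it was 2.67 and 2.77 with p53WT, 1.83 and 1.80 with TAD1m, 2.06 and 2.05 with TAD2m and 1.00 and 1.02 with TAD12m, against 1.09 and 1.10 with the vector. The ratio was higher off than on doxycycline in all 3 KPsh settings, higher with p53WT, TAD1m and TAD2m than with the vector, and lowest with TAD12m.

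Gss rose in both Pcyt2-edited settings, with 160.3 and 174 CPM in sgPcyt2 cells off doxycycline, against 109 and 117 CPM on it, and 188 and 184 CPM against 95.5 and 101 CPM with the cDNA. Its log2 rise was 0.57 ± 0.05 and 0.92 ± 0.05. Gpx1 split by setting. It had 147 and 155 CPM in sgPcyt2 cells off doxycycline, against 178 and 165 CPM on it, a log2 change of -0.19 ± 0.05 (adjusted p = 0.000354). With the cDNA it had 213 and 221 CPM off the drug, against 144 and 154 CPM on it, a log2 rise of 0.54 ± 0.05 (adjusted p = 9.66e-15). The difference of -0.73 ± 0.06 between these responses was itself called (adjusted p = 1.27e-12).

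Slc3a2 had small changes, with 187 and 189.9 CPM in sgPcyt2 cells off doxycycline, against 204 and 198 CPM on it, and 249 and 241 CPM against 227 and 225 CPM with the cDNA. Its log2 changes of -0.10 ± 0.04 (adjusted p = 0.034, with 0.0108 to 0.145 over the alternatives) and 0.12 ± 0.04 (adjusted p = 0.00709, with 0.000655 to 0.0786) were both lost when 1 library was left out. Without sgPcyt2 replicate 1 on doxycycline, without sgPcyt2 replicate 1 off it, or with DESeq2's test, the first had an adjusted p of 0.145, 0.0709 and 0.0693. Without cDNA replicate 2 on doxycycline or replicate 1 off it, the second had 0.0729 and 0.0786. Gsr lay between 338 and 383 CPM in all 8 libraries, and its log2 changes of 0.08 ± 0.04 and 0.07 ± 0.04 were not called (adjusted p = 0.0787 and 0.0887).

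Cth had 7.67 and 10.8 CPM in sgPcyt2 cells off doxycycline, against 20.4 and 21.1 CPM on it, and 10.5 and 11.9 CPM against 17.2 and 18.5 CPM with the cDNA. Chac1, at lower levels, had 1.60 and 2.30 CPM in sgPcyt2 cells off the drug, against 4.45 and 5.06 CPM on it, and 0.883 and 1.18 CPM against 4.52 and 5.25 CPM with the cDNA. In each case both libraries off doxycycline lay below both on it. The falls on the log2 scale were -1.17 ± 0.12 and -0.68 ± 0.12 for Cth, and -1.29 ± 0.23 and -2.22 ± 0.26 for Chac1. Cbs was listed at 0.190 to 0.700 CPM in the 8 libraries, with 49 counts in all, and was not tested there.

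Set against each other at the same drug state, sgPcyt2 cells had 2.53-fold more Slc7a11 than cells with the cDNA off doxycycline (log2 1.34 ± 0.07, adjusted p = 3.82e-10) and 1.58-fold less on it (log2 -0.66 ± 0.08, adjusted p = 4.29e-05). Gclc showed the same turn, with log2 differences of 0.56 ± 0.04 off the drug and -0.34 ± 0.06 on it, and so did Gclm with 0.26 ± 0.05 and -0.29 ± 0.05. Off doxycycline 4 of the 9 genes were higher and 3 lower in sgPcyt2 cells (16.3% and 16.8% of all genes, 33.1% together), and on it 2 were higher and 4 lower (8.4% and 10% of all genes, 18.4% together). Chac1 was 1.85-fold higher in sgPcyt2 cells off the drug, a call lost without sgPcyt2 replicate 2 (adjusted p = 0.288), without cDNA replicate 1 (0.182) and with DESeq2 (0.111). Gss, with log2 differences of -0.15 off the drug and 0.20 on it, and Gpx1, with 0.20 on it, also lost those calls when single libraries were left out, with adjusted p up to 0.181, 0.105 and 0.0715. Pcyt2-targeted cells off doxycycline also had less Trp53 than those with the cDNA (42.1 and 41.6 CPM, against 97.2 and 86.8 CPM) and less Cdkn1a, a p53 target (291 and 302 CPM, against 383 and 392 CPM). Cells with the cDNA held Pcyt2 at 2193 to 2636 CPM, far above unedited KPsh cells (83.4 to 114 CPM). These contrasts thus set low against very high Pcyt2 messenger, not loss against the usual level. The part of Trp53, Cdkn1a and the excess of Pcyt2 in these differences was not tested.

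**Figure D2:**
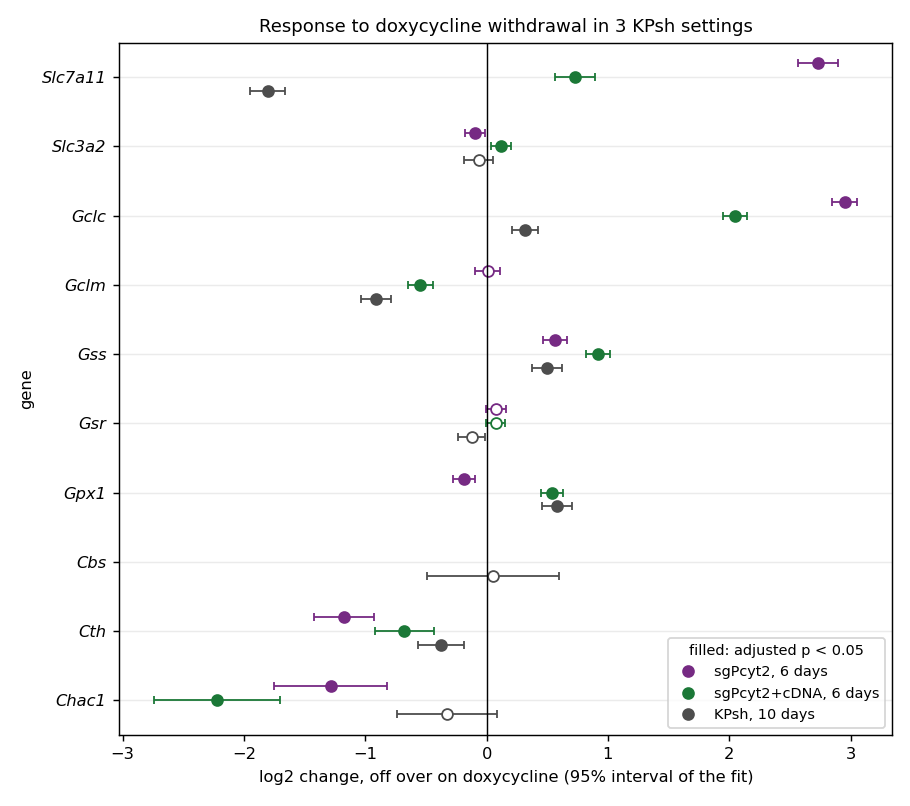
Log2 change of each gene off over on doxycycline, with the 95% interval of the fit, in sgPcyt2 cells, in sgPcyt2 cells with the Pcyt2 cDNA (n = 2 per group) and in unedited KPsh cells (n = 3 per group). Filled points passed an adjusted p of 0.05. Of the 3 settings shown, Cbs was tested in unedited KPsh cells alone. Slc7a11 stands at -1.80 in KPsh cells, 0.73 with the cDNA and 2.73 in sgPcyt2 cells, while Gss is above 0 and Cth below 0 in all 3.

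The response of the unedited and edited KPsh cells was compared in 1 fit of both tables (15735 genes, 14 libraries). The Slc7a11 response was higher by 4.52 ± 0.11 on the log2 scale in sgPcyt2 cells than in KPsh cells (adjusted p = 4.47e-21) and by 2.55 ± 0.11 with the cDNA (adjusted p = 6.71e-16). Gclc differed in the same direction by 2.62 ± 0.08 and 1.74 ± 0.08, and Gclm by 0.91 ± 0.08 and 0.37 ± 0.08. The response of Gpx1 was lower in sgPcyt2 cells than in KPsh cells (difference -0.78 ± 0.08), while with the cDNA the difference was -0.03 ± 0.08 and not called (95% interval -0.20 to 0.13). Of the 10 genes, 4 were higher and 3 lower in the sgPcyt2 response (24.5% and 31.5% of all genes, 55.9% together), and 6 were higher and 1 lower in the cDNA response (20.5% and 27.6%, 48.1% together). Both comparisons share the KPsh libraries. The opposite direction of Slc7a11 in unedited and edited cells was known before these tests, so its p-values are not independent support for it. The edited and unedited cells also differ in days of culture, in table, in Krt7 and in how far Trp53 was restored, and these cannot be told apart.

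The level on doxycycline differed between the sets as well. On the drug Slc7a11 stood at 52.4 to 84.3 CPM in the 4 Pcyt2-edited libraries, against 206 to 235 CPM in unedited KPsh cells. Gclc stood at 67.9 to 92.3 CPM in the edited libraries, against 250.5 to 260.3 CPM in unedited ones. Off the drug the order of Slc7a11 turned round, with 128 to 375 CPM in the edited cells and 57.3 to 67.1 CPM in unedited KPsh cells. These levels come from tables scaled separately and were not tested.

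In KPnull cells, expressing p53WT for 48 hours also lowered Slc7a11, Gclm and Cth and raised Gclc, Gss and Gpx1, as well as Slc3a2. Of the 10 genes 5 rose and 3 fell with p53WT, where 25.5% of 15075 genes rose and 25.1% fell (50.6% together). With TAD2m 4 rose and 3 fell (24.9% and 24.2% of all genes, 49.1% together). With TAD1m 2 rose and 1 fell (19% and 17.5%, 36.4% together), and with TAD12m none rose and 2 fell (2% and 1.85%, 3.85% together). The 4 comparisons share the vector libraries. TAD12m left the p53 target Cdkn1a at 32.6 and 32.6 CPM, against 38.7 and 47.5 CPM with the vector, while p53WT brought it to 401 and 358 CPM.

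Slc7a11 had 148 and 166 CPM with p53WT, 196 and 198 with TAD1m, 138 and 139 with TAD2m and 182 and 165 with TAD12m, against 221 and 217 CPM with the vector. All 8 libraries with a p53 form lay below both vector libraries. The log2 change was -0.48 ± 0.06 with p53WT (adjusted p = 8.74e-06), -0.66 ± 0.06 with TAD2m (adjusted p = 3.01e-07) and -0.34 ± 0.06 with TAD12m (adjusted p = 0.00469). The TAD12m call was lost in a fit of those 2 groups alone (adjusted p = 0.0709). TAD1m, at -0.15 ± 0.06, was not called (adjusted p = 0.0693). In order of level, TAD2m was lowest, then p53WT, TAD12m, TAD1m and the vector. TAD2m did not differ from p53WT beyond the test's threshold (log2 -0.18 ± 0.06, adjusted p = 0.688), nor did TAD12m (log2 0.15 ± 0.06, adjusted p = 0.0685, with 0.0135 to 0.504 over the alternatives), while TAD1m was higher than p53WT by 0.33 ± 0.06 (adjusted p = 0.000596).

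Slc3a2 had 360 and 357 CPM with p53WT, 314 and 318 with TAD1m, 341 and 335 with TAD2m and 280.1 and 323 with TAD12m, against 286 and 309.7 CPM with the vector. With p53WT and TAD2m, which lowered the transport subunit, both libraries were above both vector libraries, by 0.27 ± 0.06 on the log2 scale with p53WT (adjusted p = 0.00213). The rise of 0.18 ± 0.06 with TAD2m (adjusted p = 0.0267) was lost without vector replicate 1 (0.214), without TAD2m replicate 1 (0.133) or without TAD2m replicate 2 (0.0864).

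Gclc, the catalytic ligase subunit, differed from p53WT with each of the 3 mutants. It had 267 and 289.6 CPM with p53WT, 173 and 173 with TAD1m, 206 and 207 with TAD2m and 139.6 and 128 with TAD12m, against 169 and 163 CPM with the vector. The log2 change was 0.74 ± 0.06 with p53WT (adjusted p = 2.72e-08), 0.31 ± 0.06 with TAD2m (adjusted p = 0.000348) and -0.31 ± 0.06 with TAD12m (adjusted p = 0.00542, and 0.0983 in a fit of those 2 groups alone). With TAD1m it was 0.06 ± 0.06 and not called. Against p53WT, Gclc fell by 0.68 with TAD1m, by 0.43 with TAD2m and by 1.06 with TAD12m on the log2 scale (adjusted p = 1.43e-07, 0.00179 and 5.05e-10). It was the only member called between TAD2m and p53WT, where 0.199% of all genes were higher and 0.0862% lower (43 genes, 0.285% together), and that call was lost without p53WT replicate 2 (0.0563), TAD2m replicate 1 (0.0932) or TAD2m replicate 2 (0.0603).

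Gclm had 164 and 172 CPM with p53WT, 155 and 158 with TAD1m, 164 and 166 with TAD2m and 229 and 206 with TAD12m, against 256 and 243 CPM with the vector. It fell with p53WT, TAD1m and TAD2m, with no overlap with the vector and log2 changes of -0.57 ± 0.06, -0.67 ± 0.06 and -0.60 ± 0.06. TAD1m, which left Slc7a11 and Gclc uncalled, thus still had 1.59-fold less Gclm than the vector (adjusted p = 1.99e-07). With TAD12m the log2 change was -0.20 ± 0.06 (adjusted p = 0.0819), and without TAD12m replicate 1 it was called (adjusted p = 0.0148). Gss had 86.9 and 89.7 CPM with p53WT, 78.8 and 83.4 with TAD1m, 86.8 and 87.5 with TAD2m and 67.6 and 73.8 with TAD12m, against 77.8 and 74.4 CPM with the vector. Its small rises of 0.21 ± 0.06 with p53WT and 0.19 ± 0.06 with TAD2m were lost when single libraries were left out, with adjusted p up to 0.0693 and 0.102.

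Cth behaved differently with the TAD1 mutant. It had 36.1 and 40.9 CPM with p53WT, 88.2 and 80.7 with TAD1m, 35.2 and 37.3 with TAD2m and 60.3 and 55.5 with TAD12m, against 54.7 and 47.7 CPM with the vector. The TAD1m libraries were the highest of all 10 and those with p53WT and TAD2m the lowest, with no overlap with the vector. The log2 change was 0.72 ± 0.08 with TAD1m (adjusted p = 4.1e-06), -0.42 ± 0.09 with p53WT (adjusted p = 0.000764) and -0.50 ± 0.09 with TAD2m (adjusted p = 0.000177). TAD1m exceeded p53WT by 1.14 ± 0.09, or 2.20-fold (adjusted p = 2.79e-08). TAD12m, at 0.17 ± 0.08 over the vector, was not called. Cbs, at 1.37 to 3.13 CPM in the 10 libraries, rose by 0.75 ± 0.28 with p53WT (adjusted p = 0.033), a call lost with DESeq2 (0.157) and in 3 of the 4 fits that left out a p53WT or vector library (0.0702 to 0.239).

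Gpx1 had 83.3 and 80.8 CPM with p53WT, 82.9 and 78.3 with TAD1m, 76.9 and 71.0 with TAD2m and 60.0 and 69.7 with TAD12m, against 54.3 and 63.0 CPM with the vector. It rose by 0.49 ± 0.08 with p53WT, 0.46 ± 0.08 with TAD1m and 0.34 ± 0.08 with TAD2m. The TAD2m call was lost without vector replicate 1 (0.0658) or TAD2m replicate 1 (0.0539). TAD12m overlapped the vector (log2 0.15 ± 0.08, adjusted p = 0.519). Gsr stayed between 593 and 697 CPM in the 10 libraries and was called with none of the 4 forms against the vector. Chac1 lay between 8.78 and 14.5 CPM and was likewise uncalled against the vector, with log2 changes between -0.38 ± 0.14 (TAD12m, adjusted p = 0.199) and -0.00 ± 0.14 (p53WT). These depended on single libraries. Without vector replicate 1 the log2 change of Chac1 was -0.49 with TAD2m (-0.28 with all libraries) and -0.59 with TAD12m.

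Against p53WT itself, 3 of the 10 genes were higher and 2 lower with TAD1m (20.4% and 18.7% of all genes, 39.1% together), and 2 were higher and 6 lower with TAD12m (25.5% and 25.6%, 51.2% together). With TAD12m, Gclm was higher by 0.37 ± 0.06 and Cth by 0.59 ± 0.09, while Gss (-0.32 ± 0.06) and Gpx1 (-0.34 ± 0.08) were lower. Slc3a2, Cbs and Chac1, with log2 changes of -0.25, -0.85 and -0.38, each lost the call when a single library was left out, with adjusted p up to 0.0547, 0.127 and 0.24. With TAD1m, Gsr was higher by 0.17 ± 0.05 and Slc3a2 lower (-0.19 ± 0.06), calls that were lost in the same way, with adjusted p up to 0.172 and 0.128.

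**Figure D3:**
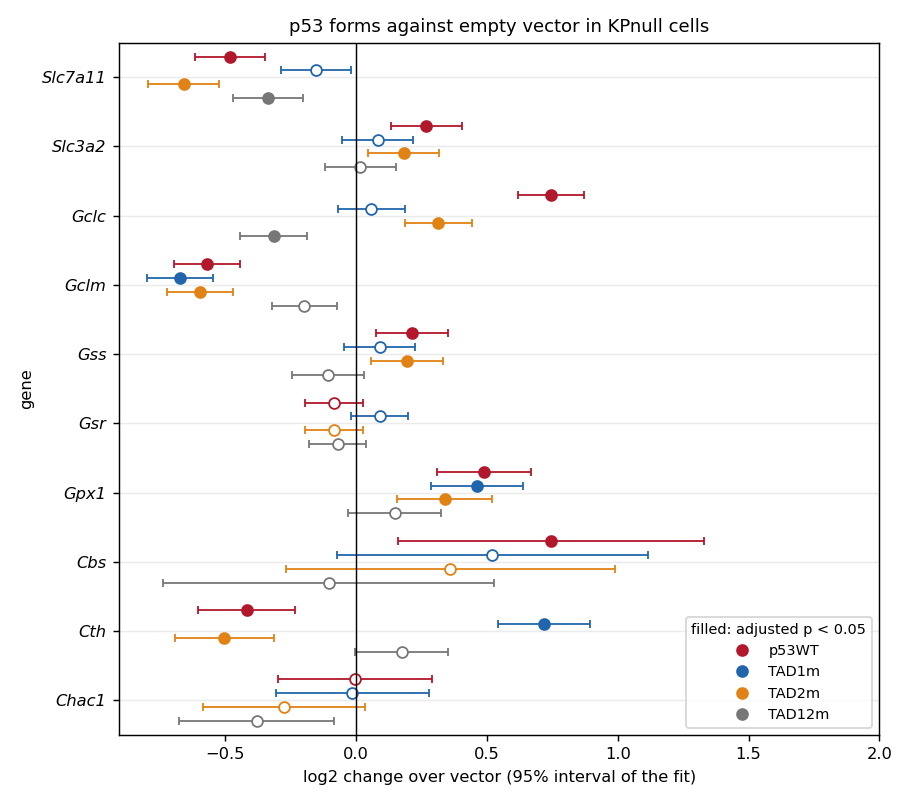
Log2 change of each gene over the empty vector in KPnull cells, with the 95% interval of the fit, for p53WT, TAD1m, TAD2m and TAD12m (n = 2 per group, shared vector libraries); filled points passed an adjusted p of 0.05. Gclc runs from 0.74 with p53WT to -0.31 with TAD12m, and Cth is raised with TAD1m (0.72) but lowered with p53WT and TAD2m.

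Of 10 genes known to act on Slc7a11 in mouse or human cells, 5 rose and 4 fell in KPsh cells off doxycycline, where 33.1% of all genes rose and 31.7% fell. In sgPcyt2 cells 3 rose and 5 fell (39.2% and 37.1% of all genes), as with the cDNA (37.3% and 36.3%). With p53WT in KPnull cells 5 rose and 2 fell (25.5% and 25.1%). Atf4, an activator of Slc7a11 and Chac1 under amino acid stress, fell in each of these comparisons. It had 241, 229 and 251 CPM in KPsh cells off doxycycline, against 324, 317 and 305 CPM on it. It had 102 and 104 CPM in sgPcyt2 cells off the drug, against 216 and 223 CPM on it, and 100.05 and 102 CPM against 250.3 and 242 CPM with the cDNA. The log2 change of Atf4 was -0.39 ± 0.05, -1.09 ± 0.04 and -1.29 ± 0.04 in these 3 settings and -0.32 ± 0.06 with p53WT. Atf4 messenger was lower off doxycycline in all 3 KPsh settings. Its part in the changes of Slc7a11 was not tested.

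Nfe2l2, which encodes NRF2, an activator of Slc7a11, Gclc and Gclm, rose by 0.26 ± 0.06 in KPsh cells, 0.78 ± 0.04 in sgPcyt2 cells and 0.54 ± 0.04 with the cDNA. In KPnull cells it had 642 and 629.5 CPM with p53WT, 311 and 310.1 with TAD1m, 521 and 539.8 with TAD2m and 242 and 219 with TAD12m, against 346 and 333 CPM with the vector. It thus rose with p53WT (0.90 ± 0.06) and TAD2m (0.64 ± 0.06), was not called with TAD1m and fell with TAD12m (-0.56 ± 0.06). With p53WT and TAD2m, Gclc rose (0.74 and 0.31) while Slc7a11 (-0.48 and -0.66) and Gclm (-0.57 and -0.60) fell. Bach1, which encodes a repressor of NRF2 target genes, rose by 1.16 ± 0.07 in sgPcyt2 cells, 1.16 ± 0.08 with the cDNA and 0.61 ± 0.09 in KPsh cells. Ddit3 (CHOP), for which another gene ID with the same symbol was left out, rose by 1.5 ± 0.13, 1.08 ± 0.12 and 0.99 ± 0.12 in the same order. In KPnull cells Bach1 was not called with p53WT (0.08 ± 0.08) or TAD2m (0.11 ± 0.08), and it rose with TAD1m (0.40 ± 0.08). These are messenger levels, and the activity of the proteins was not measured. The part of these regulators in the changes of the members was not tested.

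Among 10021 genes with a mean of at least 5 CPM in each table, the 5 whose group means were nearest to those of Slc7a11 over the 11 groups were Onecut2, Jade2, Sema4g, Erbb3 and Mtus1. Nearness was the root mean square difference of mean log2(CPM + 0.5), centred within each table, and was 0.21, 0.25, 0.25, 0.26 and 0.26, with a median of 0.79 over all these genes. Onecut2 encodes a transcription factor, Sema4g a semaphorin and Erbb3 a receptor of the epidermal growth factor receptor family. All 5 shared the turn of direction, with lower means off doxycycline in KPsh cells and higher ones in both edited settings. The measure picks genes by this pattern and carries no test.

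**Figure D4:**
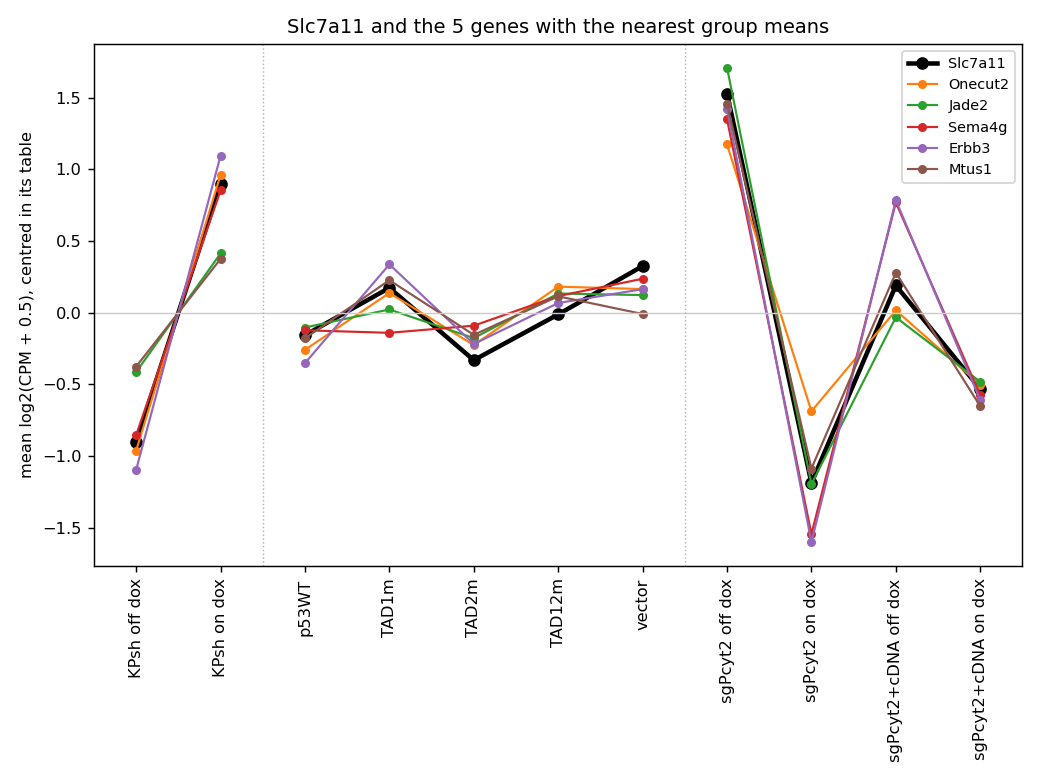
Group means of log2(CPM + 0.5), centred within each table, for Slc7a11 (black) and the 5 genes nearest to it over 11 groups; dotted lines separate the KPsh, KPnull and Pcyt2 tables. All 6 lines are lower off than on doxycycline in KPsh cells and higher off than on it in sgPcyt2 cells and in cells with the cDNA.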

How the data were processed

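RNA was extracted with TRIzol and made into libraries with a stranded mRNA kit, per the labels' protocols. The authors deposited estimated counts per gene and library, in steps of 0.5 and not normalized, in 3 tables. In each library 17.6% to 19.9% of values are not whole. Per the file headers, HOMER counted reads on both strands over exons of GENCODE vM25, and the submitters' processing notes name STAR 2.6.1c and the build mm10. Columns were matched to samples by name. Those of KPsh cells off doxycycline and of cells with the Pcyt2 cDNA were matched by elimination. Doxycycline in all KPnull groups follows the growth protocol, while the series text speaks of cells with or without it.

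Counts were rounded to whole numbers. Genes were kept with edgeR's filterByExpr, libraries scaled by TMM, and differences tested by the quasi-likelihood method of edgeR 4.0.16 in R 4.3.3, within a table or, for the differences between KPsh and Pcyt2-edited cells, in 1 fit of both tables. Adjusted p-values are Benjamini-Hochberg over all genes of a comparison, called under 0.05, and 15 comparisons were made. CPM use TMM-adjusted library sizes. Log2 changes carry the standard error of the fit. Alternatives were DESeq2 1.42.0, its size factors, other filters, unrounded counts, fits of the compared groups alone, a replicate block and leaving out each library. Replicate libraries differed beyond sampling noise in all 15 pairs. The fits were also run on simulated counts with few changed genes, as many up as down. That setting is unlike comparisons where most genes were called, so it does not check the fits there. The members and gene lists were chosen with earlier results of these data known. From the other lists the text names some of the up to 3 called genes whose log2 changes were largest (mean CPM 5 or more), and Atf4, Nfe2l2, Bach1 and Ddit3 in the settings they are compared in.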

Additional observations from a re-analysis of the deposited data

Results flagged for a closer look

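The effect of doxycycline withdrawal differed between settings for 21 results on the 10 genes, each by a test of the difference itself. They were 7 in each comparison. Of all genes, 25.2% were called between sgPcyt2 cells and those with the cDNA. The share was 55.9% between sgPcyt2 and KPsh cells and 48.1% between cells with the cDNA and KPsh cells. Values are differences of log2 changes, with the first-named setting minus the second. Between sgPcyt2 cells and those with the cDNA, Slc7a11 differed by 2.00, Gclc by 0.90 and Gclm by 0.56. The responses of Slc3a2 (-0.21), Gss (-0.35), Gpx1 (-0.73) and Cth (-0.50) were lower in sgPcyt2 cells. The call on Cth was lost without any 1 of 4 libraries and with DESeq2, with an adjusted p of 0.0306 that ran from 0.0014 to 0.319 over the alternatives.

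Between sgPcyt2 and unedited KPsh cells, Slc7a11 differed by 4.52, Gclc by 2.62, Gclm by 0.91 and Gsr by 0.19. Gpx1 (-0.78), Cth (-0.81) and Chac1 (-0.97) were lower. Between cells with the cDNA and KPsh cells, Slc7a11 differed by 2.55, Gclc by 1.74, Gss by 0.43, Gclm by 0.37, Gsr by 0.21 and Slc3a2 by 0.20, and Chac1 by -1.88. In these comparisons the calls on Gsr, on Slc3a2 and on Chac1 in sgPcyt2 cells were lost when single libraries were left out, with adjusted p up to 0.145 for Gsr, 0.148 for Slc3a2 and 0.107 for Chac1. Setting, table and days of culture coincide there and cannot be told apart. The opposite direction of Slc7a11 was known before these tests.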

How the results depend on the processing

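Of 145 results on single members, 89 were called, and 65 of these kept their call under every alternative run. No call turned into a call in the opposite direction. Of the results not called, 12 gained a call under at least 1 alternative. The 24 calls that were lost under at least 1 alternative are named in the text. With the numbered replicate block all 145 results kept their side of the threshold, for example with 6 members and 8665 genes called in KPsh cells, against 6 and 9063 without it. Correlations of the deviations of same-numbered libraries ran from -0.211 to -0.178 in KPsh cells, -0.112 to -0.009 in the Pcyt2 table and -0.455 to 0.618 in KPnull cells. In KPnull cells 4 of 10 pairs of groups were over 0.1 and the others were not, so the numbers were not taken as pairs. Crossed pairs, added after seeing the data, gave 8511 genes and 8 members for p53WT over vector, 8256 and 7 for TAD2m over vector, 8567 and 9 for TAD12m over p53WT, and 11361 and 7 for sgPcyt2 off over on doxycycline.

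For TAD12m over vector, a fit of those groups alone called 160 genes and 0 members (580 and 2 in the fit of all KPnull groups). For TAD2m over p53WT, 107 genes were called without the filter and 99 in a fit of those groups alone (43 as reported). DESeq2 called 1578 genes for sgPcyt2 over cDNA on doxycycline (2746 by edgeR), 3088 off it (4944) and 2421 for the interaction (3759). The cause of these shifts was not tested. Leaving out 1 library at a time, members called ran from 4 to 6 for TAD2m over vector, 3 to 4 for TAD1m over p53WT, 0 to 1 for TAD2m over p53WT and 5 to 9 for TAD12m over p53WT. Genes called ran from 352 to 504 for TAD12m over vector, 13 to 23 for TAD2m over p53WT and 1680 to 2141 for sgPcyt2 over cDNA on doxycycline. Where a group was left with 1 library, it was assumed to vary like the others. Depth limits Cbs and Chac1 in particular, with under 15 CPM in every library.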

Other observations

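Of 26 other genes of glutathione use, breakdown and export, 21 were tested in KPsh cells, where 11 rose and 2 fell off doxycycline (33.1% and 31.7% of all genes). Of 19 tested in the Pcyt2 table, 12 rose and 4 fell in sgPcyt2 cells (39.2% and 37.1% of all genes) and 11 rose and 3 fell with the cDNA (37.3% and 36.3%). The median log2 change of the list was 0.23, 0.40 and 0.32 in these settings, against 0.01, 0.02 and 0.02 over all genes tested. Of 20 tested in KPnull cells, 6 rose and 1 fell with p53WT (25.5% and 25.1% of all genes), 9 rose and 2 fell with TAD1m (19% and 17.5%), 6 rose and 2 fell with TAD2m (24.9% and 24.2%), and none was called with TAD12m (2% and 1.85%). These are counts and medians, with no test of the list. Gpx4, the peroxidase of membrane lipids, rose by 1.02 ± 0.06 in KPsh cells, 0.89 ± 0.04 in sgPcyt2 cells and 0.92 ± 0.04 with the cDNA on the log2 scale. Oplah, which returns 5-oxoproline from glutathione breakdown to glutamate, rose by 2.93 ± 0.13 with p53WT, 2.30 ± 0.13 with TAD1m and 2.85 ± 0.13 with TAD2m. Off doxycycline Oplah was not called in KPsh cells (0.06 ± 0.15), in sgPcyt2 cells (-0.28 ± 0.20) or with the cDNA (-0.32 ± 0.20). Chac2, which also cleaves glutathione, rose by 1.12 ± 0.10 in sgPcyt2 cells and 0.86 ± 0.10 with the cDNA.

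Of 21 genes of other cysteine and methionine supply, 16 were tested in KPsh cells, where 4 rose and 9 fell (33.1% and 31.7% of all genes). Of 17 tested elsewhere, 9 rose and 7 fell in sgPcyt2 cells (39.2% and 37.1%), 6 rose and 9 fell with the cDNA (37.3% and 36.3%), and 5 rose and 9 fell with p53WT (25.5% and 25.1%). The responses of 8 of the 17 were higher in sgPcyt2 cells than with the cDNA and none was lower (12.8% and 12.4% of all genes), with a median difference of 0.37 on the log2 scale, against 0.02 over all genes tested. Slc1a4, a neutral amino acid transporter, had the largest of these differences (1.28 ± 0.09), and it fell by 1.00 on the log2 scale in KPsh cells. Sqor, which oxidises hydrogen sulfide in mitochondria, rose by 2.47 ± 0.06 in sgPcyt2 cells and 1.68 ± 0.05 with the cDNA. In the thioredoxin arm, the parallel thiol system, 6 of 15 genes rose and 4 fell in KPsh cells, 6 rose and 7 fell in sgPcyt2 cells, and 5 rose and 8 fell with the cDNA, where 64.8%, 76.3% and 73.5% of all genes were called. Of 14 tested in KPnull cells, 4 rose and 5 fell with p53WT, where 50.6% of all genes were called. Sesn2, a p53 target, rose by 1.76 ± 0.08 in KPsh cells, 1.92 ± 0.06 in sgPcyt2 cells, 2.08 ± 0.06 with the cDNA and 2.00 ± 0.10 with p53WT. Prdx4, a peroxiredoxin of the endoplasmic reticulum, fell by 2.32 ± 0.10 in sgPcyt2 cells and by 2.44 ± 0.10 with the cDNA. In unedited KPsh cells its log2 change of -0.13 ± 0.08 was not called.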
